A study of Mus musculus with 4 samples.

Results

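The genes described here are 35 mouse genes of the endoplasmic reticulum (ER) that act in the XBP1 and ATF6 arms of the unfolded protein response, or that fold, degrade or translocate secretory proteins. They were taken as every probe set whose platform gene symbol is that of a listed gene. All 35 genes were found, with 94 of the 45037 probe sets tested, and Ero1lb is on the platform under its current symbol Ero1b. RNA came from 4 subclones of the mouse hybridoma 36-65, a cultured fusion of a B cell and a myeloma cell that secretes antibody. Subclones H23 and H27 switched antibody class spontaneously at high frequency in culture, and subclones L25 and L27 did so at low frequency. The labels name no treatment, and all 4 were grown with 10% fetal calf serum. Each subclone was measured on 1 array, and nothing in the labels says that subclones of a class arose independently, so p-values measure the spread between these 4 cell populations only.

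The unfolded protein response matches the folding capacity of the ER to the load of secreted protein. Its sensor IRE1 (gene Ern1) removes a short intron from Xbp1 RNA, which then encodes the active transcription factor XBP1, while the sensor ATF6 is itself cut in the Golgi to release a transcription factor. Both factors raise transcription of chaperones, disulfide isomerases and degradation factors. Plasma cells, which secrete antibody in bulk, depend on XBP1 for their enlarged ER.

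The median probe set had a log2 intensity between 5.25 and 5.30 on the 4 arrays. Genes of antibody-secreting cells were bright in both classes. Jchain, which joins antibody units, averaged 14.46 in high and 14.42 in low switching subclones, and the plasma cell surface protein gene Sdc1 12.57 and 12.46. Pax5, a B cell factor shut off in plasma cells, averaged 5.37 in both, near the median probe set, as did Cd79a at 5.12 and 5.14. Not all B lineage genes were dim, since Cd79b averaged 11.82 in high and 11.06 in low switching subclones, and Ptprc 12.37 and 11.80. Of 10 such genes of antibody-secreting and B lineage cells, Cd79b was called higher and Tnfrsf17 lower. Summed intensities of 7 T cell markers ran from 678 to 687 in high and from 688 to 722 in low switching subclones, those of 8 myeloid markers, mostly the signal of the lysosomal gene Cd68, from 1410 to 1582 and from 1014 to 1175, and those of 8 fibroblast markers from 296 to 302 and from 238 to 248. Cd68 averaged 10.26 and 9.72, while Mpo, Elane, S100a8 and S100a9 lay below the median probe set in both classes. Of these 23 markers, Lum was the only gene past the threshold, and the part of other cells in the results below was not tested.

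High switching subclones had more RNA of the degradation factor Herpud1 (2 of 2 probe sets called, as defined below), the chaperone calreticulin (Calr, 2 of 3) and the sensor Ern1 (1 of 5). They had less of the transcription factor Xbp1 (3 of 4) and the mannosidase-like protein Edem1 (1 of 2). The central chaperone Hspa5 (BiP) and the isomerase P4hb had differences near 0. Of the 94 probe sets, 5 were called higher and 4 lower with limma, where a call is a Benjamini-Hochberg adjusted p under 0.05 over all probe sets tested. These are 5.32% and 4.26%, against 1.5% called higher and 2.1% called lower among all probe sets. Most of the 94 are bright, and among those averaging 7 or more on the log2 scale the shares were 5.48% in either direction for 73 of them, against 2.98% higher and 4.22% lower for all 14489 such probe sets. At an unadjusted limma p under 0.05 stood 43 of the 94, against 18.6% of all probe sets and 35.5% of the bright ones, and counts at this threshold below are to be read against these shares. The calls fell on 5 genes, and 30 genes had no called probe set. Xbp1 alone gave 3 of the 4 lower calls, and Calr and Herpud1 gave 2 higher calls each. Shares by probe set thus count some genes repeatedly. On the brightest probe set of the 35 genes, only Calr and Herpud1 were called higher and only Xbp1 lower. Among all genes averaging 7 or more, 3.24% were called higher and 4.4% lower on their brightest probe set. Over the brightest probe set of each gene, the median difference (high minus low switching, log2) was 0.04, against 0.01 over 18193 genes and -0.05 over the 8222 with a mean of at least 7. Single genes spread from -1.32 for Tram2 to 0.83 for Herpud1, with 20 above and 15 below 0.

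**Figure D1:**
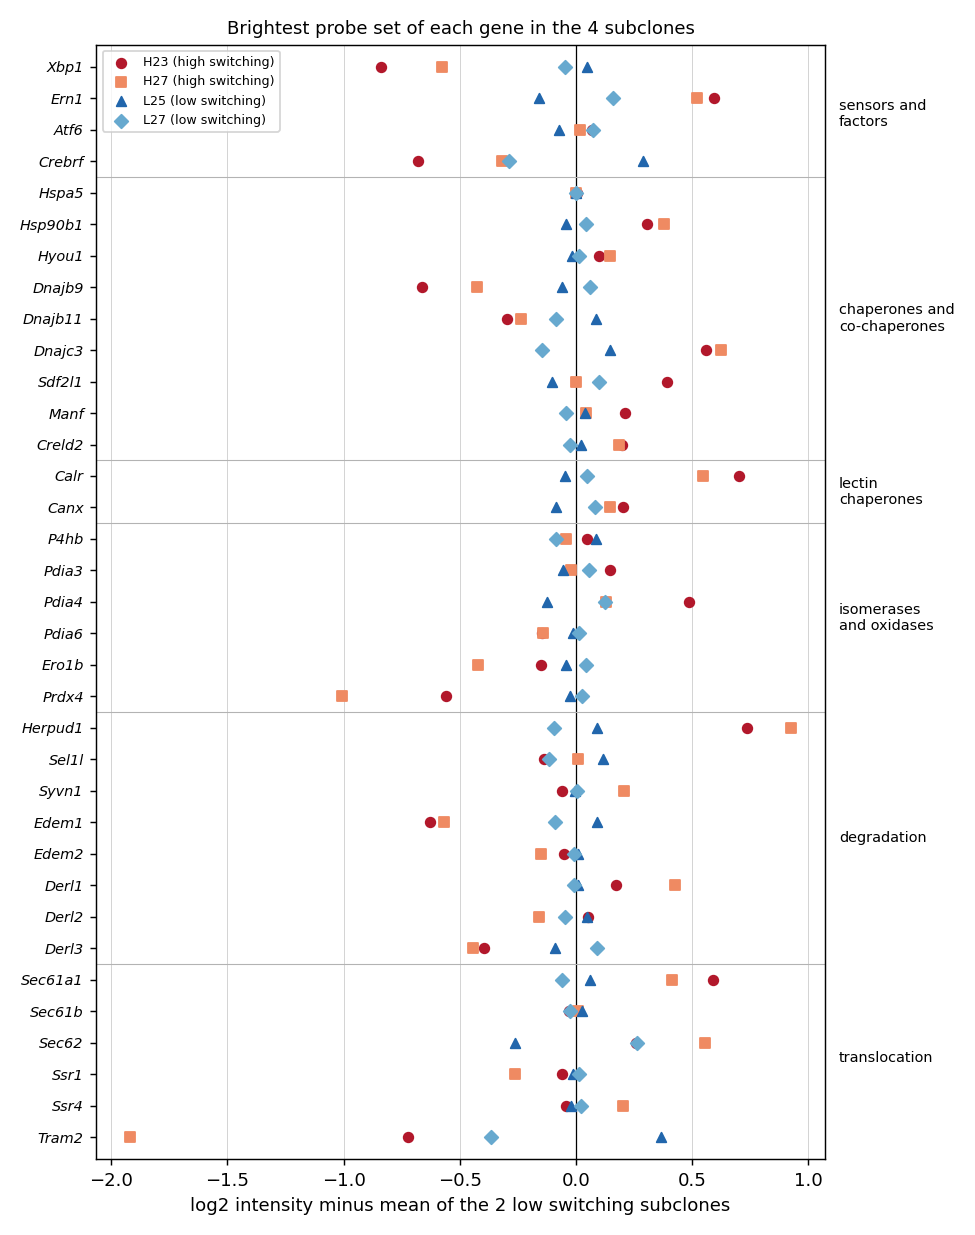
Log2 intensity of the brightest probe set of each of the 35 genes in high switching (H23, H27) and low switching (L25, L27) subclones, minus the mean of the low switching pair, with genes grouped by role. Herpud1, Calr, Ern1, Dnajc3 and Sec61a1 lie to the right in both high switching subclones, Xbp1, Dnajb9, Prdx4, Edem1, Derl3 and Tram2 lie to the left, and the 4 points of Hspa5 coincide.

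Promoters show what many of these genes share beyond their products. The ER stress element (ERSE), to which ATF6 and XBP1 are known to bind together with the factor NF-Y, reads CCAAT, then 9 bases of any kind, then CCACG. A second form, ERSE-II, reads ATTGG, 1 base of any kind, then CCACG. Windows of 300 bases, from 250 before to 50 after the start of the gene, were taken from RefSeq (build GRCm38.p6) for 30 of the 35 genes and searched on both strands. Only exact matches were counted, and near matches, such as those in the windows of Hspa5, Herpud1 and Pdia3, were not. No window was used for Atf6, Hyou1, Manf, Derl1 and Sec61a1. An ERSE was found in 10 of the 30 genes, and in 39 of all 32851 windows (0.119%), so these genes hold 10 of the 39. The list was drawn up around the XBP1 and ATF6 arms, so such shares are a description and no independent finding. ERSE-II was found in Herpud1 and Dnajb11, and in 0.0365% of all windows. The XBP1 sequence TGACGTGG was in 0 of the 31 windows of these genes and in 0.676% of all windows. The shorter parts alone were common: CCACG was in 80.6% of the 31 windows against 32.8% of all, and CCAAT in 71% against 37.4%, counts that include the copies inside an ERSE. The elements are listed below, each read from its own strand, with the fixed bases in capitals and the spacer in lower case.
Hspa5 ERSE (chr2:34772025-34772043, plus strand): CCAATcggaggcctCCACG
Hsp90b1 ERSE, nearer the start (chr10:86705533-86705551, plus strand): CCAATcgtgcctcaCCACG
Hsp90b1 ERSE, farther from the start (chr10:86705638-86705656, minus strand): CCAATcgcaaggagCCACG
Dnajc3 ERSE (chr14:118937827-118937845, plus strand): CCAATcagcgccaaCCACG
Creld2 ERSE (chr15:88819520-88819538, minus strand): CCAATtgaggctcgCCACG
Calr ERSE (chr8:84847075-84847093, plus strand): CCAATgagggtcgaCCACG
Canx ERSE (chr11:50325800-50325818, minus strand): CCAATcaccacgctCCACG
Pdia6 ERSE (chr12:17266491-17266509, plus strand): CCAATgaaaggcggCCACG
Ero1b ERSE (chr13:12565682-12565700, minus strand): CCAATgaggcgggaCCACG
Syvn1 ERSE (chr19:6046532-6046550, plus strand): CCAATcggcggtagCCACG
Derl3 ERSE (chr10:75893242-75893260, minus strand): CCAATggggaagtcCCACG
Herpud1 ERSE-II (chr8:94386377-94386387, plus strand): ATTGGgCCACG
Dnajb11 ERSE-II (chr16:22857852-22857862, plus strand): ATTGGcCCACG

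The 250 bases before the start are printed for 3 genes, namely the chaperone gene with a difference near 0 and both genes in which every probe set was at least 1.5-fold higher. They are written 5′ to 3′ along the gene, and capitals mark the ERSE or ERSE-II. The Hspa5 element begins 65 bases before the start, and that of Herpud1 52 bases before it. The Calr element lies in the opposite direction to the gene, with its outer end 162 bases before the start.
Hspa5 (chr2:34771840-34772089, plus strand): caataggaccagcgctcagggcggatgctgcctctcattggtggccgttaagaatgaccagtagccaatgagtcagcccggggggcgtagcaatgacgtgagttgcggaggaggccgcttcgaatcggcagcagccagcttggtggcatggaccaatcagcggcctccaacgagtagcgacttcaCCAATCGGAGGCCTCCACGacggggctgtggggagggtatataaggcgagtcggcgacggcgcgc
Herpud1 (chr8:94386179-94386428, plus strand): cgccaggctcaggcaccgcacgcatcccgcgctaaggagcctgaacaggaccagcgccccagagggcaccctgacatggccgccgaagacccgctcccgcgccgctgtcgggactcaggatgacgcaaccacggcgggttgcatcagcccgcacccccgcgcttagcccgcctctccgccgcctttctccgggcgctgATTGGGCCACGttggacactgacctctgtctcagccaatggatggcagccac
Calr (chr8:84846932-84847181, minus strand): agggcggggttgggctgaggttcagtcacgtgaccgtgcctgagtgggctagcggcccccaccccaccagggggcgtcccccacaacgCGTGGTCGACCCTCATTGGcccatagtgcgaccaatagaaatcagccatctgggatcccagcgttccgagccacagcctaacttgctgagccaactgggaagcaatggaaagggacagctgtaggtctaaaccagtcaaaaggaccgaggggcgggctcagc

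Among the sensors and transcription factors, Xbp1 was lower and its activator Ern1 higher. The brightest Xbp1 probe set read 12.45 in H23 and 12.71 in H27, against 13.33 in L25 and 13.24 in L27. Its second probe set read 12.06 and 12.22 in H23 and H27, against 13.06 and 12.99 in L25 and L27, and the next 10.41 and 10.61, against 11.43 and 11.34. The classes did not overlap on these 3 probe sets, and H23 was the lowest array on each. The log2 differences were -0.71 ± 0.13 (SE; limma adjusted p = 0.0461), -0.88 ± 0.11 (0.0196) and -0.88 ± 0.12 (0.0232), and all 3 fell past the threshold. The fourth, dimmest probe set gave -0.44 and overlapped between the classes (adjusted p = 0.347). Which probe sets read the spliced or the unspliced form of Xbp1 was not analysed here. When any 1 of the 4 arrays was left out, all 3 calls ended, with differences between -0.58 and -0.98.

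The fourth of 5 Ern1 probe sets read 6.57 in H23 and 6.68 in H27, against 5.55 in L25 and 5.48 in L27. It rose by 1.11 ± 0.11 (adjusted p = 0.00995). Both low switching arrays were near the median probe set, where Pax5 also lay, so the size of this change is uncertain. The call held without H23 or without H27, and ended without L25 (adjusted p = 0.0568) or without L27 (adjusted p = 0.0521). The brightest Ern1 probe set read 10.85 and 10.78 in H23 and H27, against 10.10 and 10.42 in L25 and L27, a difference of 0.56 ± 0.14 that did not pass (adjusted p = 0.0973). All 5 probe sets of Ern1 were above 0, from 0.35 to 1.18, and on each of them both high switching arrays exceeded both low switching arrays. The probe set at 1.18 had an adjusted p of 0.054, and passed without L27 (adjusted p = 0.0449).

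Atf6 had differences near 0. Its 3 probe sets gave 0.04, -0.05 and 0.00, and the 95% interval of the brightest ran from -0.23 to 0.32. Crebrf, a gene for a regulator of the ER-resident factor Luman (CREB3), had -0.50 ± 0.22 on its brightest probe set (adjusted p = 0.304), where L25 at 9.91 stood above L27 at 9.33, H27 at 9.31 and H23 at 8.94. In all, 1 of the 15 probe sets of these 4 genes was called higher and 3 lower, with a median gene difference of -0.23.

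**Figure D2:**
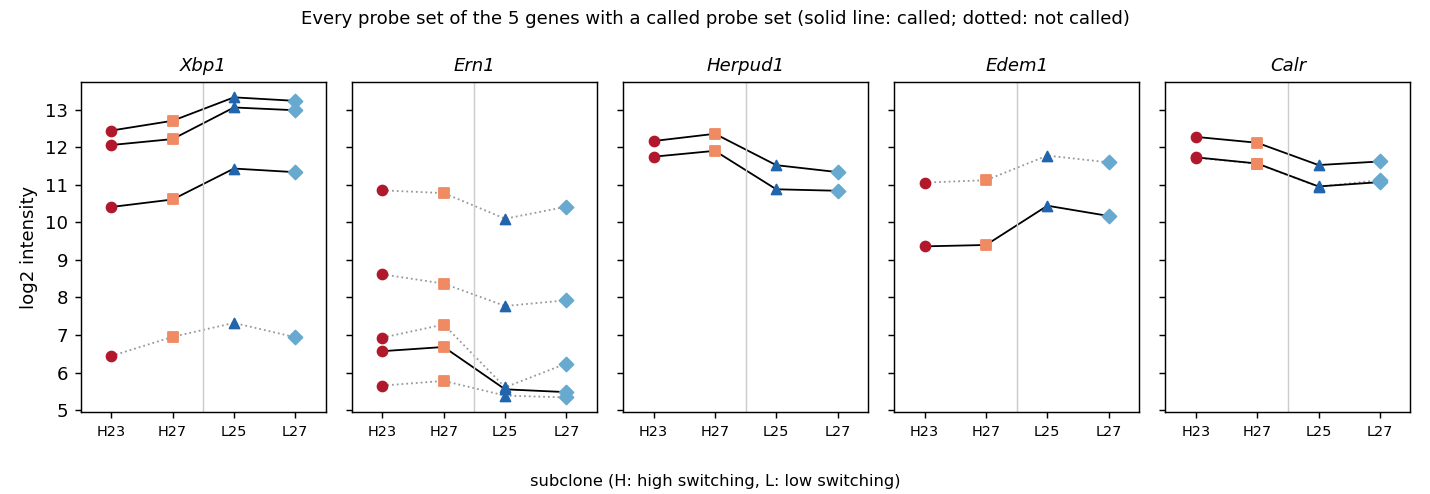
Log2 intensity of every probe set of the 5 genes with a called probe set, in high switching (H23, H27) and low switching (L25, L27) subclones, with each line 1 probe set. Xbp1 and Edem1 lines step up between the high and the low switching pair and those of Ern1, Herpud1 and Calr step down, and the dimmest Xbp1 probe set overlaps between the classes.

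The 9 genes for the Hsp70 and Hsp90 chaperones, their co-chaperones and the secreted factors Manf and Creld2 had 0 of 18 probe sets called, with 9 at an unadjusted limma p under 0.05 and a median gene difference of 0.13. Hspa5, the ER Hsp70 that also holds the sensors inactive, read 13.62 in H23 and 13.61 in H27, against 13.61 in both L25 and L27. Its difference was 0.00 with a 95% interval from -0.25 to 0.25, and its other probe sets gave 0.05 and 0.19. Hsp90b1 (GRP94), the ER Hsp90, read 13.19 and 13.26 in H23 and H27, against 12.84 and 12.92 in L25 and L27, so the classes did not overlap. Its difference of 0.34 ± 0.11 had an adjusted p of 0.161, and its second probe set gave 0.30. Hyou1, a large Hsp70 relative that exchanges nucleotide on BiP, gave 0.12, 0.32 and 0.43 on its 3 probe sets, with adjusted p-values from 0.194 to 0.62.

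None of the J-domain co-chaperones of BiP passed the threshold. Dnajc3 (p58IPK) read 9.16 and 9.23 in H23 and H27, against 8.75 and 8.45 in L25 and L27, a difference of 0.59 ± 0.13 (adjusted p = 0.0785). All 5 of its probe sets were above 0, from 0.16 to 0.59, with no overlap between the classes on any. Dnajb9 (ERdj4), which restrains IRE1, read 10.30 and 10.54 in H23 and H27, against 10.91 and 11.03 in L25 and L27. Its single probe set gave -0.55 ± 0.13 (adjusted p = 0.084). Dnajb11 (ERdj3) gave -0.27 ± 0.12 (adjusted p = 0.291). Sdf2l1, a partner of ERdj3, had 10.28 in H23 and 9.89 in H27, against 9.79 in L25 and 9.99 in L27, so its classes overlapped. Manf and Creld2, small ER proteins that are secreted under stress, gave 0.13 and 0.19 (adjusted p = 0.652 and 0.405).

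Of the lectin chaperones, which hold glycoproteins during folding, calreticulin was higher. Calr read 12.28 in H23 and 12.12 in H27, against 11.53 in L25 and 11.62 in L27. Its 3 probe sets gave 0.62 ± 0.12 (adjusted p = 0.0469), 0.60 ± 0.12 (0.0601) and 0.64 ± 0.12 (0.0471), about 1.5-fold each, so that 2 rose past the threshold and the other lay just beyond it. All Calr calls ended when any 1 array was left out, with adjusted p-values from 0.0958 to 0.218. The membrane-bound relative calnexin (Canx) gave 0.18, 0.14 and 0.29, none past the threshold.

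Of the disulfide isomerases and oxidases, 0 of 14 probe sets in 6 genes were called, with 4 at an unadjusted limma p under 0.05, and the median gene difference was -0.07. P4hb (PDI), a major isomerase of the ER, read 13.04 and 12.94 in H23 and H27, against 13.07 and 12.90 in L25 and L27. Its difference was 0.00 with an interval from -0.28 to 0.29. Pdia3 (ERp57), which works with calreticulin and calnexin, gave 0.06 on its bright probe set, Pdia4 (ERp72) 0.31 with H23 at 10.25 and the other 3 arrays between 9.63 and 9.89, and Pdia6 -0.14. Ero1b (Ero1lb), the oxidase that recharges the isomerases in secretory cells, gave -0.29 ± 0.13 (adjusted p = 0.321). Prdx4, the ER peroxiredoxin that uses the peroxide made by this oxidation, stood apart in size. It read 10.92 in H23 and 10.47 in H27, against 11.45 in L25 and 11.50 in L27. Its difference was -0.78 ± 0.17 (adjusted p = 0.0645) and its next probe set gave -0.55 ± 0.11 (0.0626). All 4 Prdx4 probe sets were below 0 with no overlap between the classes, and the brightest passed without H23 (-1.01, adjusted p = 0.0499).

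ER-associated degradation extracts misfolded proteins for the proteasome. Of its 20 probe sets in 8 genes, 2 were called higher and 1 lower. Herpud1, a membrane protein that organizes the degradation complex, read 12.17 in H23 and 12.36 in H27, against 11.52 in L25 and 11.34 in L27. On its second probe set H23 and H27 read 11.75 and 11.91, against 10.88 and 10.84 in L25 and L27. The gene rose by 0.83 ± 0.13 (1.78-fold, adjusted p = 0.0304) and by 0.97 ± 0.11 (1.95-fold, adjusted p = 0.0155) on these probe sets. The first call ended without any 1 of the 4 arrays (0.74 to 0.93), and the second held only without H23 (adjusted p = 0.0452) and ended without H27, L25 or L27.

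Edem1, which directs glycoproteins with trimmed mannose to degradation, read 11.06 in H23 and 11.12 in H27, against 11.78 in L25 and 11.60 in L27. That difference was -0.60 ± 0.12 (adjusted p = 0.0538). Its second probe set read 9.36 and 9.40 in H23 and H27, against 10.44 and 10.17 in L25 and L27, and fell by 0.93 on the log2 scale (SE 0.13, adjusted p = 0.0241). This call held without L27 (adjusted p = 0.0489) and ended without L25, H23 or H27. Its relative Edem2 gave -0.10 and -0.12.

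None of the derlins, membrane proteins of the export channel, passed the threshold. Derl1 read 12.49 and 12.75 in H23 and H27, against 12.33 and 12.31 in L25 and L27, and its 4 probe sets gave 0.27 to 0.50 with adjusted p-values from 0.0686 to 0.283. Derl2 gave -0.05 on both of its probe sets. Derl3, the derlin enriched in secretory tissues, read 8.51 and 8.46 in H23 and H27, against 8.81 and 8.99 in L25 and L27, a difference of -0.42 ± 0.12 (adjusted p = 0.122). The ubiquitin ligase Syvn1 (HRD1) gave 0.07 and 0.01. Its partner Sel1l gave -0.06 on the brightest probe set and between -0.41 and 0.02 on the other 4, and L25 was the highest array on 4 of the 5.

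Translocation carries new chains into the ER. Of 21 probe sets in 6 genes, 0 were called, with 8 at an unadjusted limma p under 0.05. Sec61a1, the channel subunit, read 12.81 in H23 and 12.64 in H27, against 12.28 in L25 and 12.16 in L27, a difference of 0.50 ± 0.12 (adjusted p = 0.0864). Its 6 probe sets gave 0.49 to 0.66, with no overlap between the classes on any and adjusted p-values from 0.0689 to 0.165. The small subunit Sec61b read 13.19 and 13.24 in H23 and H27, against 13.25 and 13.20 in L25 and L27, a difference of -0.01 with an interval from -0.27 to 0.24. Sec62, which serves chains inserted after translation, read 10.49 and 10.78 in H23 and H27, against 9.96 and 10.49 in L25 and L27, so H23 and L27 coincided. The translocon-associated subunits Ssr1 and Ssr4 gave -0.16 and 0.08. Tram2, a relative of the channel partner TRAM, had the largest difference of these genes and also the widest spread. It read 7.19 in H23 and 5.99 in H27, against 8.28 in L25 and 7.55 in L27, which gave -1.32 ± 0.41 (adjusted p = 0.16), and its other probe set, below the median of every array, gave -0.09.

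**Figure D3:**
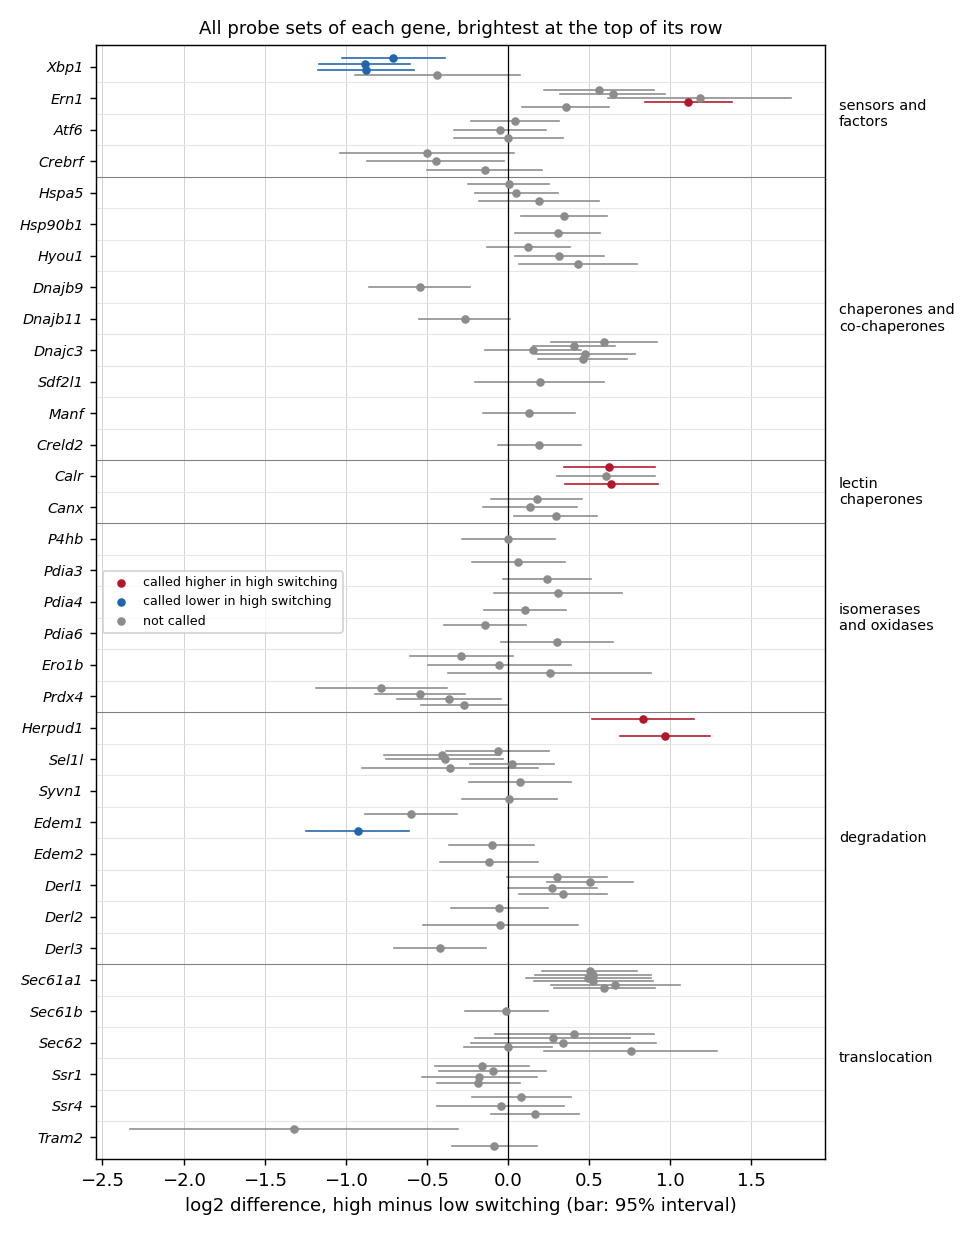
Log2 difference (high minus low switching) of all 94 probe sets with 95% intervals, in rows by gene and grouped by role, with called probe sets in red (higher) and blue (lower). Calls stand on Xbp1, Ern1, Calr, Herpud1 and Edem1, while Dnajc3, Derl1, Sec61a1 and Prdx4 have several probe sets on the same side of 0 with none called.

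Probe sets of a gene mostly pointed one way. Of the 27 genes with at least 2 probe sets, 22 had differences of 1 sign. In 9 of the 27 every probe set was higher in both high switching arrays than in both low switching arrays (33.3%), against 9.64% of 9010 such genes on the array. These were Ern1, Hsp90b1, Hyou1, Dnajc3, Calr, Pdia4, Herpud1, Derl1 and Sec61a1. For Pdia4 the gap was small, since H27 and L27 both read 9.88 to 9.89 and its other probe set was below the median of every array. In 3 of the 27 every probe set was lower (11.1%, against 9.91%), namely Prdx4, Edem1 and Tram2. Counted by probe set, 41 of 94 lay wholly above (43.6%, against 25.1% of all probe sets) and 23 wholly below (24.5%, against 22.2%). Probe sets of 1 gene were read from the same 4 arrays and may share sequence, so they are no replicates of a gene's difference. The shares over the array include dim probe sets, while 73 of the 94 averaged 7 or more. Shares without overlap were not computed for bright probe sets alone, so the part that brightness has in the excess was not tested. The genes were proposed with results of these data known, so the shares are a description.

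Neighbouring genes on a chromosome often had differences of the same sign in these subclones, and the 35 genes were set against theirs. For each gene, the neighbours were up to 20 genes on each side that averaged 7 or more on the log2 scale. The sign of the difference was that of the neighbours' median for 27 of the 35 genes (77.1%), against 73.1% of 8205 genes with that level. Calr and Herpud1 both lie on chromosome 8, where their neighbours had medians of 0.31 and 0.33. With the neighbours' median subtracted on each array, Calr was at 0.30 (adjusted p = 0.176) and its calls ended, while Herpud1 was at 0.51 (0.0884) and at 0.64 on its second probe set, which still passed (0.0404). Sec61a1 and Edem1 both lie on chromosome 6, among neighbours with medians of 0.33 and 0.28. Subtraction brought Sec61a1 to 0.15 and took Edem1 further down, to -0.86 (adjusted p = 0.0178) and -1.19 (0.00512), so both Edem1 probe sets fell past the threshold. The second Pdia6 probe set was at 0.65 (adjusted p = 0.0481) after subtraction, the 1 call gained outside Edem1, and the brightest of Pdia6 was at 0.20. Before subtraction that second probe set read 5.88 and 6.21 in H23 and H27, against 5.71 and 5.78 in L25 and L27. These values are near the median probe set, so the size of this change is uncertain. Xbp1 and Ern1 lie on chromosome 11 with neighbour medians of -0.08 and 0.14. Subtraction left Xbp1 at -0.64 (0.0774), -0.81 (0.0288) and -0.80 (0.0348) and Ern1 at 0.94 on the called probe set (0.012). Sec62 on chromosome 3, with a neighbour median of 0.43, was at -0.05 after subtraction. Dnajb9 on chromosome 12, with a neighbour median of -0.33, was then at -0.22 (limma adjusted p = 0.326). Dnajc3 on chromosome 14, with a neighbour median of 0.26, was at 0.33 on its brightest probe set (0.191). The third Dnajc3 probe set was at -0.10 after subtraction.

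**Figure D4:**
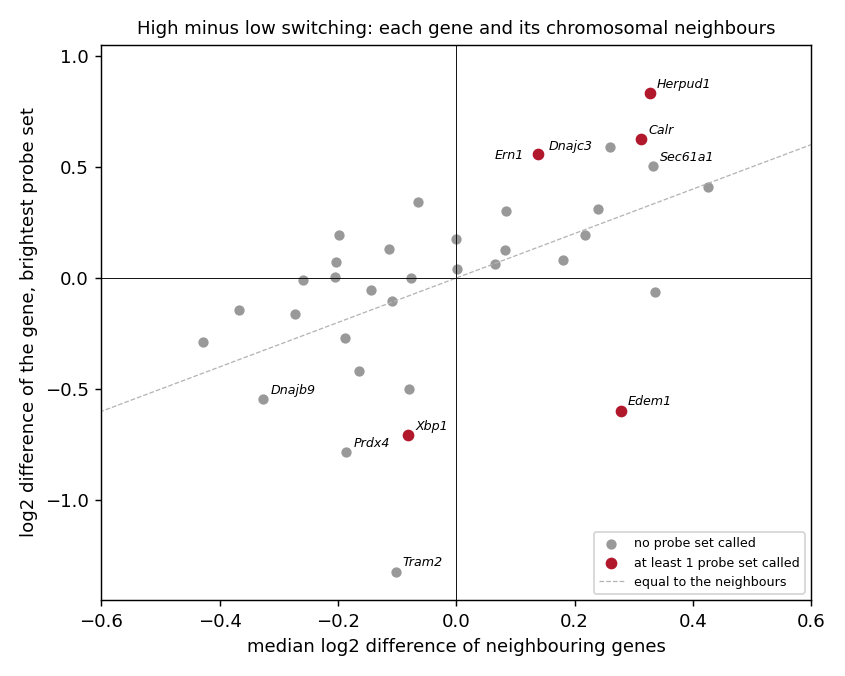
Log2 difference (high minus low switching) of each of the 35 genes on its brightest probe set, against the median difference of its chromosomal neighbours, with genes that have a called probe set in red and a dashed line where both are equal. Calr, Dnajc3 and Sec61a1 lie at the right, where neighbours are also higher, and Edem1 lies low at a neighbour median of 0.28.

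Genes with an ERSE did not share a direction. Of the 10, 7 were above and 3 below 0, from -0.42 for Derl3 to 0.62 for Calr, with a median of 0.12. Calr was the only one with a call. The 20 genes with a window and no exact ERSE had a median of -0.06, with 8 above and 12 below 0. They included Herpud1 and Ern1 (called higher) and Xbp1 and Edem1 (called lower). Some of these 20, such as Herpud1 and Pdia3, hold a near match, so the split depends on the exact form searched. Herpud1 and Dnajb11, which share the ERSE-II, had differences of 0.83 and -0.27.

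Other genes of the secretory pathway, listed beside these 35 and represented by their brightest probe set, were called about as often as other bright genes in the higher direction. Of 100 measured, 3 rose and 0 fell, against 3.24% and 4.4% of the 8222 genes averaging 7 or more. Sec24d, a coat subunit of vesicles leaving the ER, rose by 0.98 ± 0.15 (adjusted p = 0.0309) and was 1 of 18 genes of ER to Golgi transport. Stt3a, the catalytic subunit of the enzyme that transfers N-glycans during translocation, rose by 0.67 ± 0.11 (0.0332). It was 1 of 16 genes of N-glycan synthesis and transfer, which had a median of 0.24 with 8 at an unadjusted limma p under 0.05, against 37.1% of those 8222 genes. The other 3 Stt3a probe sets gave 0.58, 0.28 and 0.04 and were not called. Dnajc10 (ERdj5), a reductase that serves degradation, rose by 0.57 ± 0.10 (0.0447) and was 1 of 20 folding enzymes, whose median was -0.09. Its other probe sets gave 0.51 and 0.34 and were not called. Sec24d lies on chromosome 3, where genes averaging 7 or more had a median difference of 0.37. That median was 0.01 on chromosome 9, which holds Stt3a, and -0.15 on chromosome 2, which holds Dnajc10. On the brightest probe set, limma called none of 12 sensors, proteases and ER-bound factors, 17 degradation factors and 17 targeting and translocation factors, with 2, 3 and 4 at an unadjusted p under 0.05. Their medians were -0.07, -0.05 and 0.09. Outside this rule and chosen after its values were seen, the degradation lectin Erlec1 had 1 of 3 probe sets called lower (-0.56 ± 0.10, adjusted p = 0.0469), not its brightest (-0.25).

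The counts of calls rest on few arrays. With 2 arrays a class, an exact permutation test cannot give a two-sided p below 0.333, and limma borrows its variance from all probe sets. Without L25 0 of the 94 probe sets were called, without L27 2, without H23 3 and without H27 1. With arrays blocked by their hybridization controls, which were high on H27 and L25 and low on H23 and L27, 0 of 94 were called, while the differences themselves were the same. Cyclic loess gave 8 higher and 4 lower, and subtraction of the neighbours gave 3 higher and 4 lower, against 5 and 4.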

How the data were processed

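Biotin-labelled cRNA from the total RNA of 4 subclones was read on 1 Affymetrix array for each. The authors deposited intensities made with RMA, a method of background correction, normalization between arrays and summary over probes, per the submitters' processing notes, with no version. Their range showed a linear scale. They were taken to log2. Of 45101 probe sets, 64 controls were left out. The platform annotation gave 1 symbol for 34945 of the 45037 tested. It also gave several for 932, among them 1 probe set that shares Sec61b with another gene and was not counted, and none for 9160. RMA shrinks differences of dim probe sets, and the intensities of different probe sets are not comparable.

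High minus low switching was tested across all probe sets with limma 3.58.1 (lmFit, eBayes, two-sided, Benjamini-Hochberg threshold 0.05) in R 4.3.3. SE is the moderated standard error. The brightest probe set is the one with the highest mean over the 4 arrays. The scripts were tested on simulated arrays with 200 changed probe sets among 45037. Changes of 0.5 on the log2 scale were recovered in 0.2% of cases, of 1 in 37.2% and of 2 in 95.8%. The real arrays had more calls (1618), so these shares may differ there. Alternatives were other variance models, filters, normalizations, probe set choices, blocks and arrays left out. All 35 genes were named, and of the other ER genes up to 4 called members of each list. Genes and lists were chosen with earlier results of these data known. Names, chromosomes and promoter windows came from RefSeq tables of GRCm38.p6. The authors' genome build was not given in the sources used here. Plots were made in matplotlib 3.10.9 under Python 3.11.15.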

Additional observations from a re-analysis of the deposited data

How the results depend on the processing

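The counts for the 35 genes changed with most settings. Against 5 probe sets higher and 4 lower, a variance trend gave 9 higher, and a mean of at least 6 gave 8 and 7. Cyclic loess gave 8 higher. Without probe sets that may match several transcripts 2 were higher and 1 lower, with 1 probe set for each gene 2 and 2, and with neighbouring genes subtracted 3 were higher. The hybridization controls as a block left 0 and 0, and 58 and 94 over the whole array. Leaving out 1 array left 0 to 2 higher and 0 to 1 lower, against 112 to 253 and 196 to 329 over the whole array. The median difference of 0.04 was 0.0722 after quantile normalization, 0.0874 after cyclic loess, -0.00198 without probe sets that may match several transcripts, 0.10 with neighbours subtracted, 0.0661 when a gene's probe sets were averaged, and 0.00984 to 0.0765 without 1 array, so its direction is not settled. The cause of these shifts was not tested. Runs without 1 array also have fewer arrays, and the block leaves fewer degrees of freedom. None of the 9 called differences turned sign under any alternative run, but most of these runs could not have turned one. The classes did not overlap on these 9 probe sets, so leaving out 1 array cannot turn the sign. A variance trend, a filter, a choice of probe sets or the block leaves the difference as it was. Only another normalization or subtraction of the neighbours could have turned it. Of 85 differences not called, up to 10 turned without 1 array and 23 with neighbours subtracted. No paired analysis was possible because only 1 number (27) recurs between the classes in the labels, and the block above pairs arrays by their control signals alone. Dim probe sets limit what the array shows: 6 of the 94 lay below the median on every array.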
